A study of Mus musculus with 12 samples.

Results

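Cytosolic ribosomal proteins were examined in mouse embryos of the mid-2-cell stage that had received an antisense morpholino oligonucleotide (MO) against Oct4 or against Ccna2 (cyclin A2), or no injection. A gene was a member if a probe set named it alone and its symbol was Rpl or Rps with a number, Rplp0, Rplp1, Rplp2 or Rpsa. This gave 46 of the 18163 genes measured by such a probe set, 24 of the large and 22 of the small ribosomal subunit. Each was represented by the brightest of its probe sets, of which there were 100 in all. Another 108 probe sets match a ribosomal protein together with other genes and were not named. For 39 members, 20 large and 19 small, the mean value over the arrays was at least 100. The other 7 (Rpl12, Rpl14, Rpl37, Rpl3l, Rps16, Rps27 and Rps6) were dimmer, and their probe sets may not show the level of the gene.

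Each of 12 arrays held RNA of 20 pooled embryos, 3 arrays for each of 4 groups: Oct4-MO, Ccna2-MO, and the uninjected embryos of either experiment. Embryos came from F1 (C57BL6xDBA/2) females 3 to 5 weeks old that were mated with wild type males, and 1 collection joined embryos of 3 to 6 females. MO was injected into the cytoplasm at the 1-cell stage, at 0.6 mM per the labels for both MOs; the methods give a higher concentration for Ccna2-MO. Controls shared the collection and culture of the injected pool of the same number but received no injection. No control MO was on these arrays, so within one experiment the change after an MO and that after injection cannot be told apart; a test of one MO's change against the other's concerns only what differs between them. A MO blocks translation and need not lower its target mRNA: Pou5f1, which encodes Oct4, had a log2 fold change of 0.18 (adjusted p = 0.77), and Ccna2 one of -0.12 (adjusted p = 0.76).

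Values are array intensities, not logarithms, as the authors normalized them. Differences are on the scale of log2(value + 16), which understates those of dim probe sets. They were tested with limma over all 44937 probe sets, and a gene passed at a Benjamini-Hochberg adjusted p under 0.05. The text says "fell" or "rose" only of genes that passed. Between 39.3 and 42.7% of the probe sets of an array lay under 16. Of 14 measured oocyte and embryo markers, 12 had a mean value of at least 100. Of 11 cumulus and granulosa markers, only Cyp11a1 did. The highest value on any array lay between 5.7 (Fshr) and 125 (Star) for the other 10, with single arrays at 71.6 for Foxl2 and 67.5 for Amh. All Oct4-MO arrays lay above all controls for 3 of the 11 and below for 2, against 8.24 and 8.4% of all probe sets. All Ccna2-MO arrays lay above for 1 and below for 1, against 8.64 and 8.27%. The summed value of the 11 markers was 410 to 634 on Oct4-MO arrays and 233 to 322 in their controls. In the Ccna2-MO experiment it was 329 to 462 against 184 to 346. Cyp11a1 held most of the sum on Oct4-MO arrays, at 258, 292 and 442, against 108, 178 and 106 in their controls. On Ccna2-MO arrays Cyp11a1 was 254, 210 and 184 against 179, 12.5 and 55. The part of these markers in the results below was not tested. A lower value on an array of pooled embryos does not tell less RNA per embryo from fewer embryos recovered, and normalization between arrays can remove differences in total RNA.

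Ribosomal proteins are built into the large and the small subunit together with ribosomal RNA, in fixed proportion, so cells need their mRNAs in balance. Oocytes store many of these mRNAs, and the embryo transcribes them anew after its genome is activated. Most begin with a run of pyrimidines at the 5′ end, the terminal oligopyrimidine (TOP) motif, through which the mTOR pathway controls their translation, in part by the RNA-binding protein Larp1.

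RefSeq promoters of build GRCm38.p6 were given for 40 of the 46 members. A run of at least 6 pyrimidines (C or T on the transcribed strand) lay within 30 bases on either side of an annotated start in 33 of these, or 82.5%, against 53.5% of 27025 genes. The letters CCGGAAG, which contain the core recognised by ETS family factors, stood on either strand of the 300-base promoter in 20 members, or 50%, against 9.93% of all genes. The sequences below run from 10 bases before the annotated start to the 20th base from it, on the strand of the gene, with runs of at least 6 pyrimidines in capitals. Rpl7a and Rpl35 show the typical run. Rplp2 and Rps3 were the members that passed a test, Rpl37a and Rpl41 had the smallest p of the large subunit in both knockdowns, and Rplp0 and Rps27l departed from the other members.
Rpl7a, chr2:26910797-26910826, plus strand: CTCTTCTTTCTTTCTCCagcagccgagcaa
Rpl35, chr2:39005112-39005141, minus strand: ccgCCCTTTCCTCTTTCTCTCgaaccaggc
Rplp2, chr7:141447641-141447670, plus strand: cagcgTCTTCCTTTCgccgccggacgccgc
Rps3, chr7:99483690-99483719, minus strand: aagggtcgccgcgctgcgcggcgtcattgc
Rpl37a, chr1:72711250-72711279, plus strand: ctcgccggtctaaaaccgcgcatgcgcatt
Rpl41, chr10:128549149-128549178, minus strand: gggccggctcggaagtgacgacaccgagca
Rplp0, chr5:115559457-115559486, plus strand: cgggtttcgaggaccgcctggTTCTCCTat
Rps27l, chr9:66946076-66946105, plus strand: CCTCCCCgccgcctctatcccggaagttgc
An annotated start can differ from the one used in the embryo, and a window without a run says only that these letters are not in it.

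Levels of ribosomal protein mRNAs moved together from pool to pool. For the 39 brighter members, deviations from the group means over the 12 arrays had a mean pairwise correlation of 0.64. It was 0.63 within the large subunit, 0.64 within the small subunit and 0.65 between large and small subunit genes (380 pairs). Among 11417 genes of the brighter part of the array, the upper 22468 probe sets by mean level, it was 0.00683. This part begins at a lower level than the mean of 100 asked of the members, so it also holds dimmer genes. These values describe 12 arrays whose genes share a pool, an amplification and a normalization. Rps29 and Rps14 followed the median of the other members most closely (r = 0.96 and 0.95). Of the 3 members least like the rest, Rps27l had an r of 0.50, Rps25 of 0.12 and Rplp0 of -0.45.

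**Figure D1:**
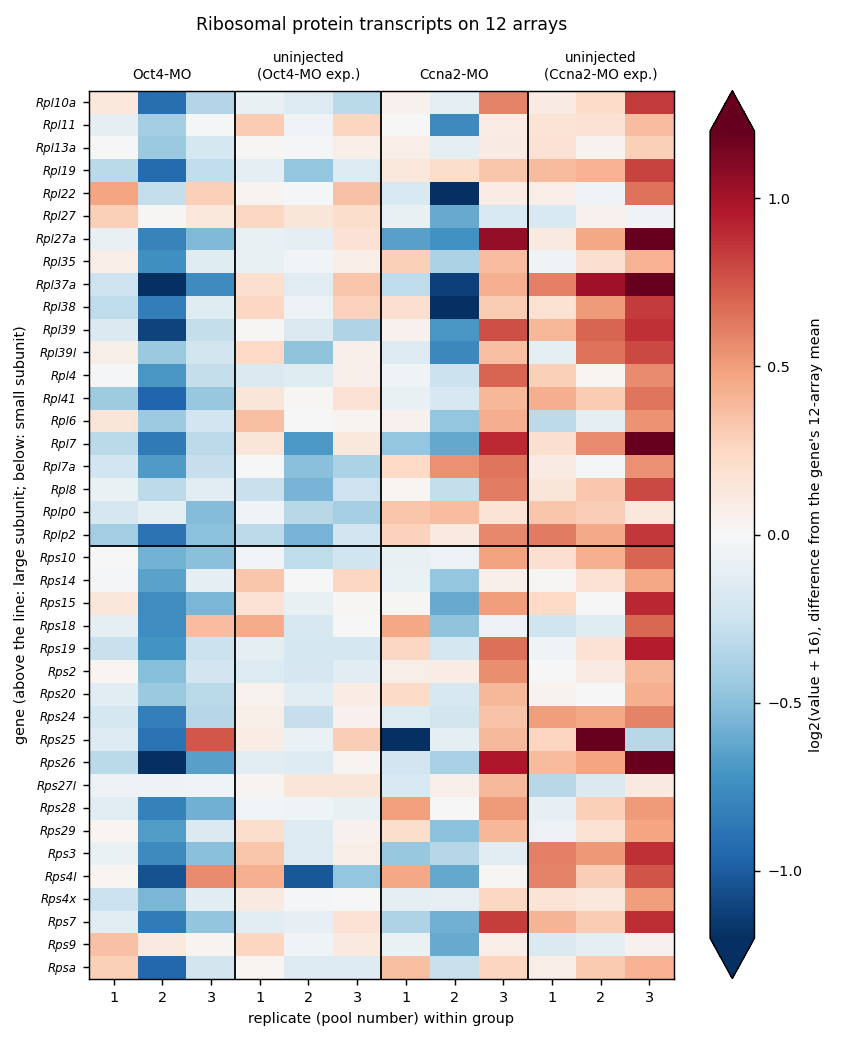
Levels of the 39 ribosomal protein genes with a mean value of at least 100 on the 12 arrays, as differences of log2(value + 16) from each gene's mean over the arrays; columns are arrays by group and pool number, and the colour scale ends at -1.2 and 1.2. Oct4-MO replicate 2 was the lowest array for 28 genes, and uninjected replicate 3 of the Ccna2-MO experiment the highest for 31.

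On each array the median member was compared with its mean over all arrays. Large subunit genes deviated by -0.14, -0.72 and -0.29 on the 3 Oct4-MO arrays and by 0.02, -0.14 and 0.08 on their controls. In the Ccna2-MO experiment they deviated by 0.04, -0.42 and 0.38 on the injected arrays and by 0.15, 0.30 and 0.65 on the controls. Small subunit genes followed, with -0.08, -0.69 and -0.22 on Oct4-MO arrays, 0.03, -0.14 and 0.04 on their controls, -0.08, -0.24 and 0.36 on Ccna2-MO arrays and 0.07, 0.18 and 0.49 on their controls. The 3 Oct4-MO arrays overlapped with their controls in the median of either subunit, and so did the Ccna2-MO arrays. Over all brighter probe sets the median deviation stayed between -0.06 and 0.04 on every array.

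**Figure D2:**
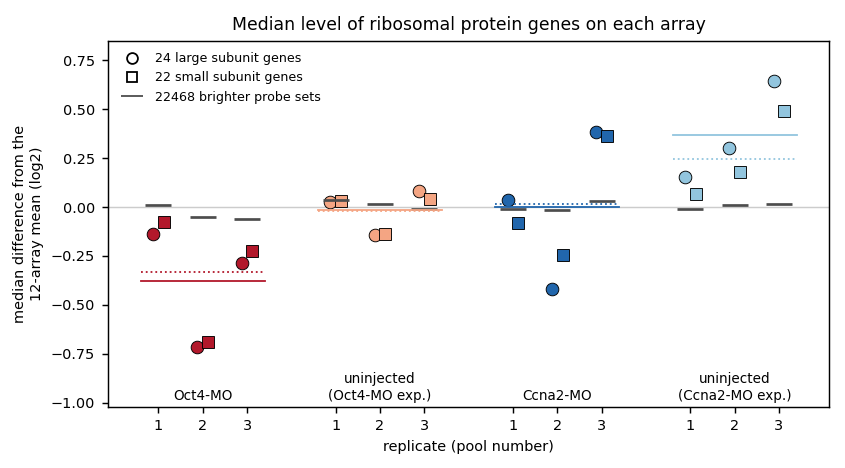
Median difference of the 24 large subunit genes (circles) and 22 small subunit genes (squares) from their 12-array means on each array, in log2(value + 16), with the median of the 22468 brighter probe sets (grey dashes); horizontal lines are group means for the large (solid) and small (dotted) subunit. The subunits lie side by side on each array, and within both injected groups replicate 2 is lowest.

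Oct4-MO replicate 2 was the lowest of its group for 36 of the 39 brighter members. Ccna2-MO replicate 2 was the lowest of its group for 30, and uninjected replicate 2 of the Oct4-MO experiment for 31. As a measure of RNA quality, the 3′ to 5′ ratio of the Gapdh control probe sets was 2.80 on Oct4-MO replicate 2 and 4.18 and 5.94 on the other Oct4-MO arrays. It was 2.36 on Ccna2-MO replicate 2 and 3.57 and 3.59 on the other Ccna2-MO arrays, and 2.97 to 3.84 over the 6 uninjected arrays. Both injected pools lowest in ribosomal protein mRNAs had the lowest Gapdh ratio of their group, whereas uninjected replicate 2 of the Oct4-MO experiment had the highest of its group, 3.84. The same ratio of the Actb probe sets ran otherwise: it was 0.82 on Oct4-MO replicate 2, the highest of the 12 arrays, against 0.44 and 0.31 in its group, and 0.45 on Ccna2-MO replicate 2, between 0.44 and 0.58. The part of RNA quality in these levels was not tested.

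The first comparison asked how the ribosomal protein mRNAs stood after knockdown of Oct4. None of the 46 passed in limma, where 0.0734% of all probe sets did. Most lay slightly lower in Oct4-MO embryos: 40 of 46 had a log2 fold change below 0 (48.7% of all probe sets), and the median was -0.25 for large and -0.24 for small subunit genes. Over all probe sets the median was 0.01, and over the brighter part -0.03. At an unadjusted p under 0.05, 8 members (17.4%) were lower, against 5.09% of all probe sets and 8.49% of the brighter part, and 1 was higher, against 4.17% of all and 5.03% of the brighter part. All 3 Oct4-MO arrays lay below all 3 controls for 11 members (23.9%), where 8.4% of all probe sets and 12.3% of the brighter part did so. The opposite order held for 1 member, Rps6, against 8.24% of all probe sets and 9.61% of the brighter part. Much of the shift came with 1 pool, and the count by p depended on several. Without Oct4-MO replicate 2, 33 members lay below 0, and the median was -0.10 for either subunit. In that setting 1 member was lower at an unadjusted p under 0.05 (3.88% of all probe sets). The count of 8 also became 1 without uninjected replicate 1 and 2 without uninjected replicate 3 (3.79 and 4.01% of all probe sets), and 5 without uninjected replicate 2 or Oct4-MO replicate 3 (5.03 and 3.75%). It was 10 without Oct4-MO replicate 1 (5.87%). Without Oct4-MO replicate 1, 27 members lay below their controls on all remaining arrays, against 15.99% of all probe sets, and without uninjected replicate 2, 20 did, against 13.5%. Without Oct4-MO replicate 2 or 3, 12 and 14 did (13.1 and 12.8% of all). Without uninjected replicate 1 or 3, 14 and 12 did (12.3 and 12.7%). By pair of pools the median of the members was -0.16, -0.48 and -0.24, with 31, 39 and 38 of 46 below 0.

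Among large subunit genes, Rpl41, the smallest ribosomal protein, was 2357, 1636 and 2316 in Oct4-MO embryos and 3507, 3203 and 3591 in their controls. Every injected pool lay below every control. Its log2 fold change was -0.72 (SE 0.17, adjusted p = 0.15). A second bright probe set gave -0.59 and did not pass (adjusted p = 0.20), while its 2 probe sets with a mean level just over 100 gave -0.06 and -0.02. With all 6 uninjected arrays as controls Rpl41 passed (log2 fold change -0.90, adjusted p = 0.024), and with array weights too (-0.77, adjusted p = 0.045). It passed in only these 2 of 24 alternatives, and in 0 of 12 that left out a single array. Uninjected pools of the other experiment, added as controls, were 0.35 higher in log2 without overlap (adjusted p = 0.45 in limma). That difference enters the -0.90.

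Rpl37a, a zinc-binding protein of the large subunit, had one of the lowest log2 fold changes in both knockdowns. It was 1002, 508 and 700.1 in Oct4-MO embryos and 1369, 1087 and 1508 in their controls, and 962, 540 and 1607 in Ccna2-MO embryos and 1821, 2432 and 2770 in theirs. Neither pair of groups overlapped. Its change in log2 was -0.87 (SE 0.34, adjusted p = 0.45) and then -1.28 (SE 0.34, adjusted p = 0.11). Its second probe set, at a mean of 893, did not overlap between groups in either experiment and gave -0.91 and -0.79 (adjusted p = 0.14 and 0.11). Without Ccna2-MO replicate 3, the least lowered pool, Rpl37a passed in Ccna2-MO embryos (log2 fold change -1.65, adjusted p = 0.033).

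Small subunit genes at an unadjusted p under 0.05 in Oct4-MO embryos were Rps3, Rps14, Rps24, Rps28 and Rps4x, with differences of -0.53, -0.45, -0.41, -0.45 and -0.35 in log2 (adjusted p = 0.37 to 0.52). Rps28, near the mRNA exit of the small subunit, was 2882, 1798 and 2110 in Oct4-MO embryos and 3083, 3053 and 2976 in controls, whose values lay close together. In Ccna2-MO embryos Rps28 had a log2 fold change of 0.10. Rps6, the substrate of S6 kinase, was the only member higher at an unadjusted p under 0.05: 82, 52 and 48 in Oct4-MO embryos and 15, 21 and 28 in controls (log2 fold change 1.03, SE 0.35, adjusted p = 0.35). Both of its probe sets were dim, at means of 30.3 and 24.6, and the second gave -0.22.

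The second comparison asked the same after knockdown of Ccna2. Rps3 fell, the only one of the 46 to pass, where 0.748% of all probe sets and 1.34% of the brighter part did. The members' median log2 fold change was -0.32 for the large and -0.29 for the small subunit, with 40 of 46 below 0; over all probe sets the median was 0.02 and 46.7% lay below 0. At an unadjusted p under 0.05, 6 members (13.0%) were lower and 0 higher, against 7.16 and 6.89% of all probe sets; in the brighter part 11.4% were lower, which is close to the members' share, and 9.71% higher. For 5 members (10.9%) all Ccna2-MO arrays lay below all controls, against 8.27% of all probe sets and 12% of the brighter part, so this share did not stand out. No member lay above its controls on all 3 arrays, against 8.64% of all probe sets and 10.8% of the brighter part. Pair by pair the median was -0.11, -0.58 and -0.24. Without Ccna2-MO replicate 2, 30 members lay below 0; without uninjected replicate 3 of that experiment, 34 did, with a median of -0.19 over the 46 and 3 lower at an unadjusted p under 0.05 (6.18% of all probe sets). Without Ccna2-MO replicate 3 that number was 20 (7.84% of all), without uninjected replicate 1 it was 10 (6.32%), and without Ccna2-MO replicate 2 it was 4 (5.49%). Members without overlap were 21 without Ccna2-MO replicate 3 (13.95% of all), 11 without uninjected replicate 1 (12.2%) and 10 without uninjected replicate 2 (12.8%). They were 7 without Ccna2-MO replicate 1 (13.84% of all), 6 without Ccna2-MO replicate 2 (12.52%) and 5 without uninjected replicate 3 (12.04%). These last counts lay close to the shares of all probe sets. When all 6 uninjected arrays served as controls, the median was -0.14 for either subunit.

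Rps3, a protein at the mRNA entry of the small subunit that also acts in DNA repair, was 1236, 1338 and 1555 in Ccna2-MO embryos and 2584, 2433 and 3136 in their controls. The groups lay far apart, and the fall was 0.97 on the log2 scale (log2 fold change -0.97, SE 0.19, 95% interval -1.37 to -0.57, adjusted p = 0.038). In Oct4-MO embryos it was 1603, 993 and 1196, and 2140, 1511 and 1797 in controls, which overlapped (log2 fold change -0.53, adjusted p = 0.37). Its controls differed between the experiments too, by 0.58 (adjusted p = 0.25). A second Rps3 probe set with a mean of 106 gave -0.95 in Ccna2-MO embryos (adjusted p = 0.43) and 0.24 in Oct4-MO embryos. The call was lost on leaving out any of 8 single arrays, among them all 3 controls of the experiment and Ccna2-MO replicates 1 and 2 (adjusted p = 0.055 to 0.13), with all 6 uninjected arrays as controls (log2 fold change -0.68, adjusted p = 0.14), and in a fit of the 6 arrays alone (adjusted p = 0.15).

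Other members low in Ccna2-MO embryos were Rpl38, Rpl11, Rps24 and Rps7, which stood at -0.75, -0.46, -0.53 and -0.57 in log2 (adjusted p = 0.34, 0.33, 0.19 and 0.46). Rpl11, which when free of the ribosome binds Mdm2, the ubiquitin ligase of p53, was 1629, 955 and 1732 in Ccna2-MO embryos and 1832, 1844 and 2116 in their controls. Rps24 was 1831, 1757 and 2608 against 2913, 2832 and 3114, again without overlap. Its 4 bright probe sets gave -0.42 to -0.53.

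A direct test of the change in Oct4-MO embryos against that in Ccna2-MO embryos called no member, where 0.00223% of all probe sets passed; Rps6 had the only unadjusted p under 0.05, where 3.01% of all probe sets were higher and 3.64% lower, or 3.34 and 4.7% of the brighter part (difference of log2 fold changes 1.59, SE 0.49, adjusted p = 0.64). The median difference was 0.09 for large and -0.06 for small subunit genes. For Rps3 the difference was 0.44, with a 95% interval of -0.13 to 1.01. These arrays thus do not show whether its change differed between the 2 experiments.

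**Figure D3:**
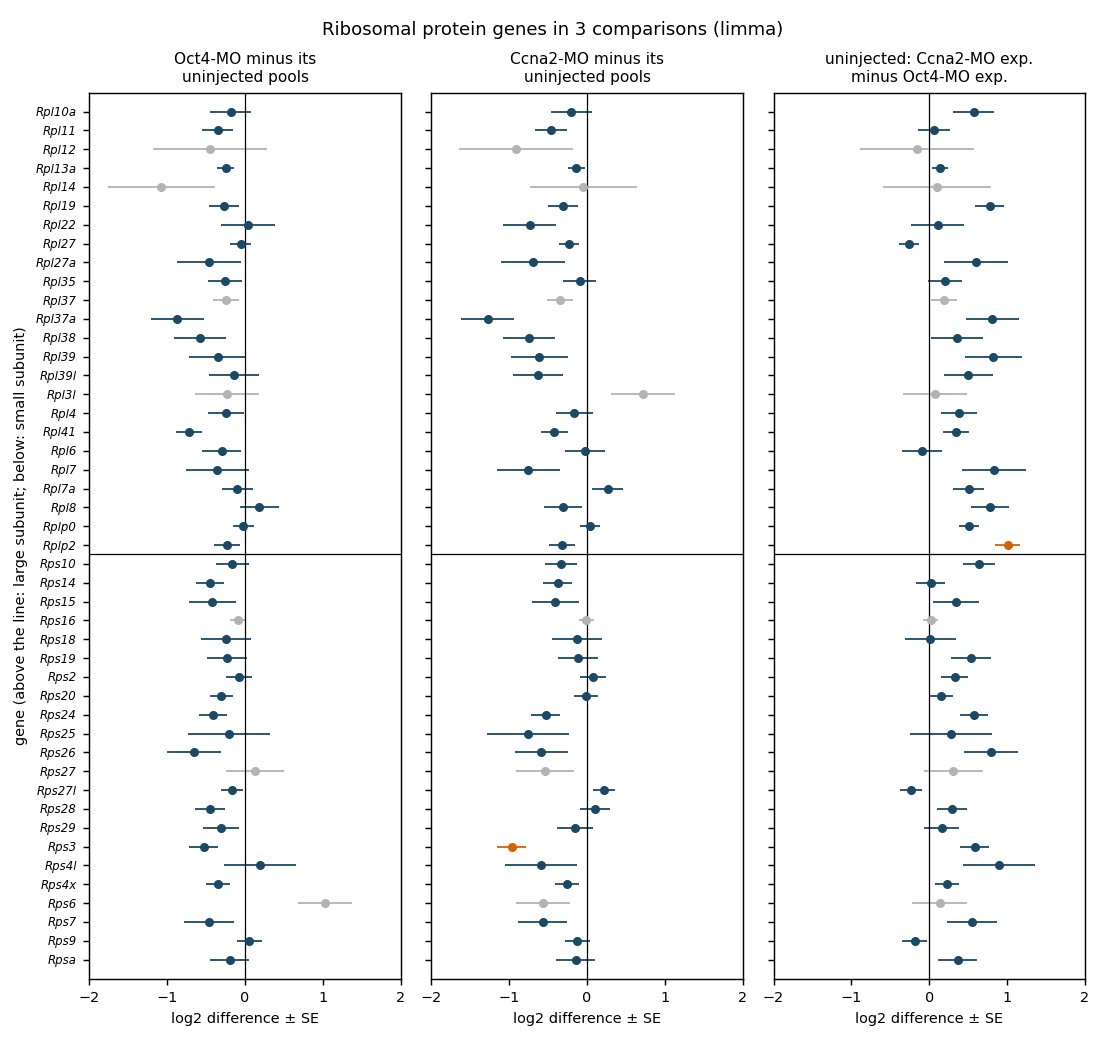
Log2 difference ± SE from limma of the 46 members in Oct4-MO embryos, in Ccna2-MO embryos and between the uninjected pools of the experiments; orange marks genes with an adjusted p under 0.05 and grey those with a mean value under 100. Most points lie left of 0 in both knockdowns and right of 0 between the uninjected groups, and only Rps3 and Rplp2 are orange, once each.

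The uninjected pools differed from each other by as much. Against uninjected embryos of the Oct4-MO experiment, those of the Ccna2-MO experiment had higher values for 41 of 46 members, with medians of 0.37 for large and 0.30 for small subunit genes and -0.00083 for all probe sets. Rplp2 rose, the only one to pass, where 0.0912% of all probe sets did. At an unadjusted p under 0.05, 12 members (26.1%) were higher and 0 lower, against 5.95 and 5.57% of all probe sets and 7.21 and 6.55% of the brighter part. These were Rpl10a, Rpl19, Rpl37a, Rpl39, Rpl7a, Rpl8, Rplp0, Rplp2, Rps10, Rps24, Rps26 and Rps3. The 3 pools of one experiment lay above the 3 of the other for 18 members (39.1%), where 10.3% of all probe sets and 12.7% of the brighter part did. Rpl27 was the only member in the opposite order, which 10.9% of all probe sets had (log2 difference -0.26). Without uninjected replicate 3 of the Ccna2-MO experiment, 36 members lay above 0, 7 were higher at an unadjusted p under 0.05 (5.35% of all probe sets), and the median was 0.23 over the 46. Without uninjected replicate 2 or 3 of the Oct4-MO experiment 7 and 8 were higher (4.33 and 4.25% of all), and without its replicate 1, 9 were (4.53%). Without uninjected replicate 1 or 2 of the Ccna2-MO experiment the count was 16 and 10 (5.47 and 5.87%). Across all these omissions 18 to 25 members lay above on all remaining arrays, against 14.2 to 16.2% of all probe sets. No treatment separates these groups, and experiment and any batch cannot be told apart.

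Rplp2 and Rplp0 belong to the stalk of the large subunit, which recruits elongation factors; Rplp0 is its base and Rplp2 one of its acidic arms. Rplp2 was 1626, 1372 and 1727 in uninjected embryos of the Oct4-MO experiment and 3137, 2775 and 3667 in those of the Ccna2-MO experiment. That is a log2 difference of 1.01 (SE 0.16, adjusted p = 0.046), lost on leaving out any of 10 single arrays (adjusted p = 0.051 to 0.19). Its injected pools were 1511, 1089 and 1432 in Oct4-MO embryos (log2 fold change -0.23, adjusted p = 0.75) and 2449, 2201 and 3021 in Ccna2-MO embryos (-0.32, adjusted p = 0.41). These changes lay close to the large subunit medians of -0.25 and -0.32. Rplp0 shared the step between experiments but not the pool to pool variation. It was 1951, 2073 and 1561 in Oct4-MO embryos and 2180, 1780 and 1698 in controls, and 2828, 2913 and 2526 in Ccna2-MO embryos and 2826, 2759 and 2458 in controls. On Oct4-MO replicate 2, where most members were lowest, Rplp0 had the highest value of its group. Its log2 fold changes were -0.02 (95% interval -0.31 to 0.27) and 0.04 (-0.25 to 0.33), and the uninjected groups differed by 0.51 (adjusted p = 0.18).

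**Figure D4:**
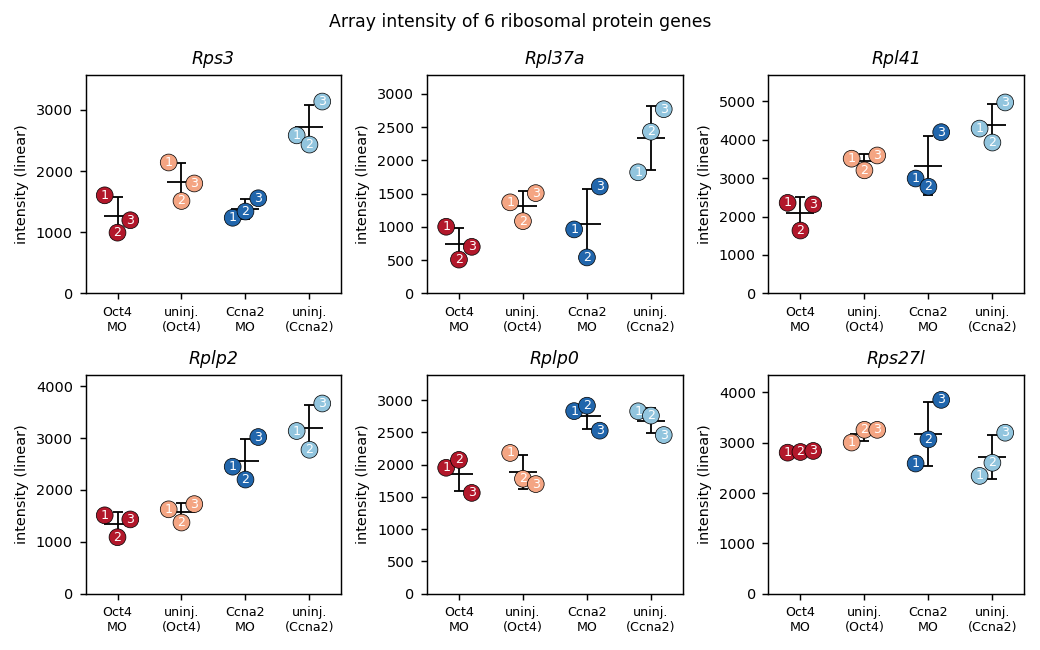
Array intensity, on a linear scale from 0, of 6 ribosomal protein genes by group; numbered circles are the arrays by pool number, with the mean (dash) and SD (bars) of 3 arrays. Rps3 and Rpl37a lie below their controls on all Ccna2-MO arrays, Rplp2 differs between the experiments, and Rplp0 and Rps27l are not lowest on replicate 2 of either injected group.

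Several ribosomal proteins have a paralog that can replace them. Rps27l, whose transcription p53 can induce, was 2802, 2815 and 2836 in Oct4-MO embryos and 3003, 3256 and 3255 in their controls, a difference without overlap but small (log2 fold change -0.17, adjusted p = 0.81). In Ccna2-MO embryos it was 2586, 3065 and 3850, and 2340, 2600 and 3198 in controls (0.22, adjusted p = 0.54). Its other 2 probe sets gave -0.19 and -0.14, and 0.21 and 0.33. The probe set of its partner Rps27 was too dim to compare. Rpl39 and Rpl39l, the latter known from male germ cells, were at log2 fold changes of -0.35 and -0.14 after Oct4-MO and -0.62 and -0.63 after Ccna2-MO. For the X-linked Rps4x these were -0.35 and -0.26, and for Rps4l 0.20 and -0.59. Rpl22 and its paralog Rpl22l1 stood at 0.04 and -0.20 in Oct4-MO embryos and at -0.74 and -0.97 in Ccna2-MO embryos, and none of them passed (adjusted p = 0.26 to 0.99). Rpsa, which also serves as a laminin receptor, had -0.20 and -0.15, with pools of the Oct4-MO group as far apart as 2932 and 1241.

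Repeated probe sets of a gene mostly gave the same direction. Of 37 further probe sets with a mean of at least 100, covering 19 members, 34 had the sign of the gene's brightest probe set after Oct4-MO, 33 after Ccna2-MO and 32 between uninjected groups; none passed. Of the probe sets used, 15 are of a kind (_x_at) that can also bind similar transcripts, and ribosomal protein genes have many processed pseudogenes, so part of a value may come from other copies. The 87 brighter probe sets that match several genes had median log2 fold changes of -0.32, -0.19 and 0.33 in the 3 comparisons; of these, 1 passed, in Ccna2-MO embryos and in the higher direction.

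Genes around the ribosome were set beside the members from lists of their roles. Of 4 measured ribosomal proteins with other names, Fau, Rps3a1, Rpl22l1 and Rpl7l1, none passed and all lay below 0 in both knockdowns, with medians of -0.38 and -0.31. Fau, which yields Rps30, was 1450, 990.5 and 1212 in Oct4-MO embryos and 1668, 1483 and 1492 in controls. Of 20 translation genes with TOP mRNAs, which include Fau again, Eif3e, a subunit of initiation factor Eif3, fell in Oct4-MO embryos: 203, 187 and 267 against 1013, 920 and 999 (log2 fold change -2.09, SE 0.23, adjusted p = 0.017). The other 19 did not pass in either comparison, and the medians were -0.17 and -0.15. For 11375 other genes of the brighter part, dimmer ones included, the median r with the median member was 0.046 over 12 arrays. These 20 translation genes followed the median member from pool to pool with a median r of 0.59. Not all did: Btf3, a subunit of the nascent polypeptide-associated complex, had an r of -0.54 and stood 0.46 and 0.52 higher in log2 (adjusted p = 0.39 and 0.17). Pabpc1, the poly(A)-binding protein, had a log2 fold change of -0.81 in Ccna2-MO embryos (adjusted p = 0.17).

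None of 25 measured genes of the mTOR and S6 kinase pathway passed, with medians of 0.05 and 0.13. Larp1 had the smallest p of the list in each knockdown. It was 384, 74.4 and 193 in Oct4-MO embryos and 511, 582 and 447 in controls, and 347, 50.6 and 241 in Ccna2-MO embryos and 685, 682 and 1010 in controls. All injected pools lay below all controls of their experiment, and the pools lowest in ribosomal protein mRNAs were also lowest in Larp1. The change in log2 was -1.42 after Oct4-MO and -2.11 after Ccna2-MO (SE 0.59, adjusted p = 0.48 and 0.12). With an r of 0.80 over 12 arrays, Larp1 was the closest of the 19 brighter genes of its list to the median member. Of 12 genes of the Mdm2 and p53 response to free ribosomal proteins none passed (medians 0.07 and -0.31). Heatr3, which helps to import Rpl5 into the nucleus, had a log2 fold change of -0.97 in Ccna2-MO embryos (adjusted p = 0.066).

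Mitochondrial ribosomal proteins, encoded by 75 measured nuclear genes, did not share the shift seen in the knockdowns. None passed in any comparison. Their median log2 fold changes were -0.01 and -0.01 in the knockdowns, where 38 and 40 of 75 lay below 0. Between uninjected groups the median was 0.12 and 27 of 75 lay below 0, a smaller shift in the direction of the cytosolic members. There 10 of the 75 were higher and 1 lower at an unadjusted p under 0.05 in limma, against 5.95 and 5.57% of all probe sets. The smallest p in Ccna2-MO embryos belonged to Mrpl3, Mrpl32 and Mrpl15, at 0.95, 0.98 and -1.49 in log2 (adjusted p = 0.087, 0.091 and 0.099), so they did not share a direction. The 51 brighter ones had a mean pairwise correlation of 0.098, against 0.64 for the cytosolic proteins. Many of the 51 had lower values than most cytosolic members, and the comparison did not match intensity. Deviations of the 51 still followed the median cytosolic member with a median r of 0.40.

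Markers of the embryo's stage lay in both directions, with more oocyte and embryo markers above their controls than below. Of 14 oocyte and embryo markers, all Oct4-MO arrays lay above all controls for Gdf9, Zar1, Tcl1 and Tle6 and below for Dppa3. Over all probe sets 8.24% lay above and 8.4% below, and in the brighter part 9.61 and 12.3%. In the Ccna2-MO experiment 6 markers lay above, Gdf9, Zar1, Tcl1 and Tle6 among them, and 3 below, again with Dppa3. There the shares were 8.64 and 8.27% of all probe sets and 10.8 and 12% of the brighter part. Zar1, a maternal oocyte transcript, was 309, 302 and 297 in Oct4-MO embryos and 96.9, 62.3 and 61.6 in controls, and 196, 551 and 430 in Ccna2-MO embryos and 36.1, 73.3 and 105 in controls. Eif1a, transcribed at the 2-cell stage, was 596, 424 and 384 after Oct4-MO against 613, 665 and 842 in controls. After Ccna2-MO it was 349, 139 and 501 against 472, 772 and 771 in controls. Eif1a thus lay below its controls on all arrays only in the Oct4-MO experiment. Hspa1a, another gene of the 2-cell activation, stood the other way in both: 666, 521 and 683 after Oct4-MO against 385, 418 and 301, and 547, 563 and 593 after Ccna2-MO against 178, 257 and 240. Zfp352, the remaining activation marker measured, overlapped with its controls after Oct4-MO and was 3768, 3893 and 3484 after Ccna2-MO against 2541, 3213 and 2278. Their part in the levels of ribosomal protein mRNAs was not tested.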

How the data were processed

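Affymetrix arrays were hybridized with RNA amplified in 2 rounds from the equivalent of 10 of a pool's 20 embryos. The deposited value is 1 intensity per probe set and array, from dChip; its version and model options are not given in the sources used. Of 45001 probe sets, 64 controls were left out. Gene names came from the platform annotation: 34849 probe sets had 1 symbol, 928 several and 9160 none. Levels were compared within a probe set only.

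R 4.3.3 and limma 3.58.1 fitted 4 group means to log2(value + 16) over all 12 arrays, with an intensity trend. The unpaired design follows the methods. The study counts 3 experiments per condition; their days are not given in the sources used, and p-values measure the spread between these pools. Equal numbers pair the pools per the labels; correlations of paired deviations were -0.0128 to 0.114. Named genes were drawn from the members that passed, the 4 smallest p per subunit and knockdown, paralogs, stalk proteins, Rpl11, Rps6 and Rpsa, and from the 3 smallest p per list and knockdown. Rps25, Rps29 and Rpl27, markers and other examples were named after their values were seen. Members and lists were chosen with earlier results of these data known. The steps were tested on simulated data. The number of arrays and signal over background limit the precision. Alternatives are given in the closing section.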

Additional observations from a re-analysis of the deposited data

How the results depend on the processing

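The medians of either subunit kept their direction under every alternative in the knockdowns and between the uninjected groups. Each moved by less than the spread between arrays (SD 0.29 for large and 0.26 for small subunit genes). That limit is wide, about as large as the knockdown medians themselves (-0.25 and -0.24 for Oct4-MO, -0.32 and -0.29 for Ccna2-MO). A median moved close to 0 would also meet it, so it does not show that their size was stable. The medians of the difference between the knockdowns lay near 0 and changed sign under some. With all 6 uninjected arrays as controls the Oct4-MO medians were -0.39 and -0.38 and the Ccna2-MO medians both -0.14. Without single arrays the medians ranged from -0.40 to -0.10 (large) and -0.36 to -0.10 (small) in Oct4-MO embryos, from -0.45 to -0.21 and -0.43 to -0.14 in Ccna2-MO embryos, from -0.09 to 0.24 and -0.19 to 0.18 for the difference, and from 0.25 to 0.46 and 0.18 to 0.41 between uninjected groups. The lowest value of both Oct4-MO ranges was reached without Oct4-MO replicate 1 and the highest without replicate 2.

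The number of members called depended on the processing. In Oct4-MO embryos it was 0, and 1 (Rpl41) with all 6 uninjected arrays as controls or with array weights. In Ccna2-MO embryos it was 1, and 0 in each of 5 settings: all 6 uninjected arrays as controls, a fit of the 6 arrays alone, no intensity trend, array weights, and probe sets averaged per gene. Between uninjected groups it was 1, and 0 in a fit of the 6 arrays alone, without the intensity trend, with 64 added before log2 and with probe sets averaged per gene. Without single arrays it was 0 to 0 in Oct4-MO embryos, 0 to 2 in Ccna2-MO embryos (2 without Ccna2-MO replicate 3), 0 to 0 for the difference and 0 to 1 between uninjected groups. Over its alternatives the adjusted p was 0.021 to 0.26 for Rps3 in Ccna2-MO embryos (24 alternatives), 0.018 to 0.19 for Rplp2 between uninjected groups (22) and 0.024 to 0.996 for Rpl41 in Oct4-MO embryos (24). With the replicate block, the pair of pools, counts stayed at 0 in Oct4-MO embryos, 1 in Ccna2-MO embryos (Rps3, adjusted p = 0.034) and 0 for the difference, and the block changed no other call; it cannot be fitted between the uninjected groups, which share no pair. With a probe set not marked _x_at or _s_at, Rpl13a in Oct4-MO embryos reversed to 0.30 and Rps24 in Ccna2-MO embryos to 0.20, neither past the threshold. The causes were not tested. Keeping only members with a mean of at least 100, or leaving out an array for the counts of members, was chosen after seeing the data.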
